A study of Mus musculus with 16 samples.

Results

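The Wnt ligands, receptors and feedback genes described here are 47 genes. They were chosen by name from the 48397 gene symbols that all 16 count files share, with earlier results of these data known. They are 13 *Wnt* ligands, 2 genes of ligand secretion, 10 frizzled receptors, 7 secreted antagonists, 11 regulators at the membrane and in the cytoplasm, and beta-catenin with 3 of its DNA-binding partners. Of these, 46 had at least 10 counts in at least 4 libraries and were compared between groups, together with all 17331 genes that passed the same filter. The one that did not was *Wnt6*, with 26 counts over the 4 control libraries, 15 over the apoE2, 10 over the apoE3 and 15 over the apoE4 libraries.

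The libraries hold total RNA of primary hippocampal neurons from CD1 mouse pups aged 0 to 2 days (P0–P2), whose own *Apoe* was not altered. All cultures received AraC, an agent that stops dividing cells. At 10 and 13 days *in vitro* (DIV) they were given 10-fold concentrated medium of immortalized astrocytes, and RNA was taken at 17 DIV. The astrocyte lines were *Apoe*-/- for the control group and homozygous for the human *APOE* ε2, ε3 or ε4 allele for the apoE2, apoE3 and apoE4 groups. Each group has 4 libraries, numbered 1 to 4, and the comparisons ask which transcripts of the neurons differ with the apoE isoform supplied. All groups therefore received astrocyte-conditioned medium, and the groups differ in the line that made it.

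Wnt proteins are secreted lipid-modified ligands. Porcupine (*Porcn*) attaches the lipid, Wntless (*Wls*) carries the ligand to the surface, and frizzled receptors bind it together with LRP5 or LRP6. In the canonical branch this stops a complex of Axin, APC and GSK3-beta from marking beta-catenin for destruction, so that beta-catenin can join the TCF/LEF factors on DNA. Genes such as *Axin2*, *Nkd1*, *Notum*, *Znrf3* and *Rnf43* are induced by the pathway and restrain it. Other ligands, of which *Wnt5a* is the best known, act mainly through routes without beta-catenin. In the hippocampus the pathway is known for its part in dendrite growth, synapse assembly and the upkeep of neural progenitors.

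TCF/LEF factors recognise a short core, and the letters CTTTGAT or CTTTGAA were searched for on both strands in RefSeq promoters of build GRCm38.p6, from 250 bases before to 50 bases after each start. Of 32851 promoters of all genes, 2842 (8.65%) held a match. For 33 of the 47 Wnt genes the table had 42 promoters, and 2 of these (4.76%) held one. Both are printed 5′ to 3′ on the strand of the gene with the matching letters in capitals, because *Wnt5b* is a ligand that changed in the comparisons, and a match is a description of the letters only.
*Wnt5b*, chr6:119449439-119449468, minus strand: agtaagtctctCTTTGATctgctccctgtc
*Wnt11*, chr7:98835050-98835079, plus strand: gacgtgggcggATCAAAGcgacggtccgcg
The *Wnt5b* window starts its match 71 bases before one of 3 RefSeq starts and lies in an intron of the longer GENCODE M21 gene (chr6:119432531-119544347). In *Wnt11* the letters stand on the opposite strand, with the first 51 bases before the start, outside the GENCODE gene (chr7:98835112-98855195).

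The 16 libraries had 14087723 to 34248172 counts on genes, with a median of 22221832, and 38.4 to 73.7% of a library's reads were on no single gene. Levels are given as CPM, the counts of a gene scaled to a common library size with edgeR's TMM factors. Neuron markers, including *Map2*, *Tubb3* and *Slc17a7*, summed to 3061 to 8314 CPM. Markers of other cells were present too. Astrocyte markers summed to 1305 to 6615 CPM, oligodendrocyte markers to 94.8 to 717 CPM, ependymal and choroid plexus markers to 27.2 to 349.9 CPM and meningeal fibroblast markers to 14.6 to 227 CPM. Microglial markers did not exceed 37.5 CPM and endothelial markers 9.04 CPM in sum, and among the defining genes *Tmem119*, *Cldn5*, *Kcnj8* and *Kl* were at 0 in at least 1 library. Whole cultures were sequenced, so more cells of a type and more RNA per cell cannot be told apart.

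Divided by the kilobases of exon of each gene in GENCODE M21, beta-catenin (*Ctnnb1*) was the most abundant of the 47, with a mean of 152 CPM per kb over the 16 libraries. The scaffold *Apc* followed with 58.1 CPM per kb. In each other class 1 or 2 genes held most of the RNA. *Wnt7b* had 23.9 CPM per kb against 2.87 for the next ligand, *Wnt7a*, and 0.0791 for the lowest, *Wnt6*. *Porcn* had 25.5 and *Wls* 5.70 CPM per kb. Among the frizzled receptors *Fzd1*, with 9.83 CPM per kb, and *Fzd3*, with 9.27, stood close together, and the lowest was *Fzd10* with 0.370. *Dkk3* (27.0 CPM per kb) led the antagonists before *Sfrp1* (3.90) and *Frzb* (3.61). Of the DNA-binding partners *Tcf7* had 0.731, *Tcf7l1* 0.105 and *Lef1* 0.0404 CPM per kb. Whether counting used the strand is not stated, so reads of overlapping genes, mostly on the opposite strand, may be included for several members. Such genes cover 15.1% of the exons of *Ctnnb1*, 16.1% of *Sfrp2*, 13.7% of *Lef1* and 38.1% of *Notum*, and between 3.15 and 8.80% of *Wnt5a*, *Wnt7b*, *Wnt11*, *Fzd6* and *Axin2*.

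**Figure D1:**
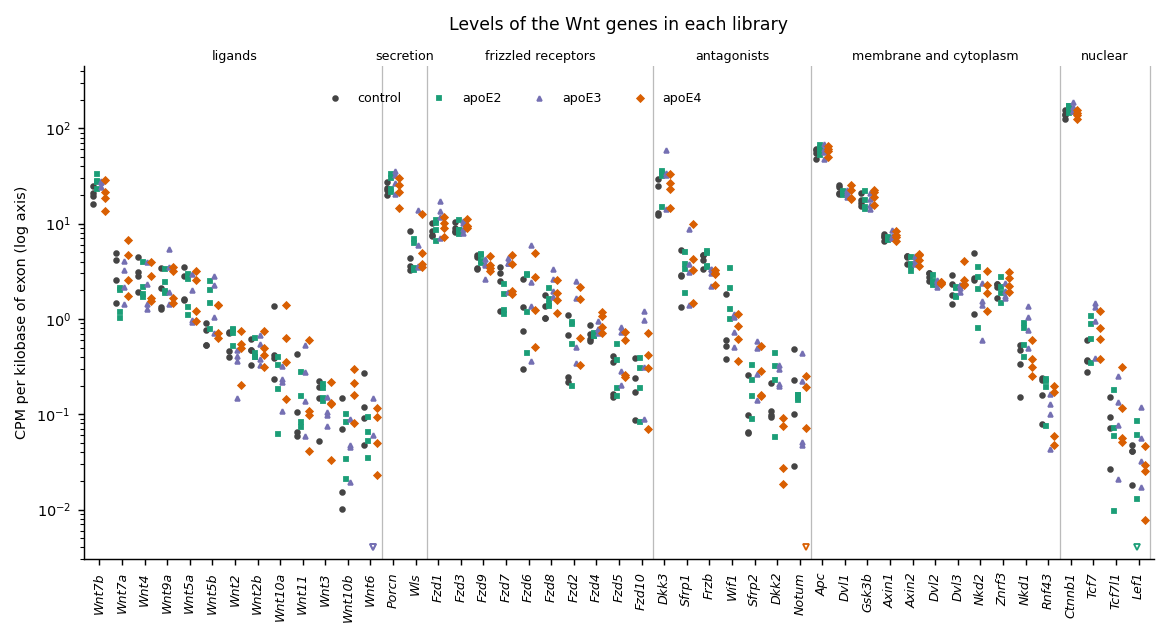
Level of each of the 47 Wnt genes in each library, as CPM per kilobase of exon on a log axis, ordered by role and, within a role, by mean level (membrane and cytoplasm stands for the regulators there, nuclear for beta-catenin and its DNA-binding partners). Each symbol is 1 of 4 libraries of a group and open triangles mark libraries with 0 counts. *Ctnnb1*, *Apc*, *Dkk3*, *Porcn* and *Wnt7b* lie above most other members in every group, and *Lef1* has the lowest mean over the 16 libraries.

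Libraries of the same number in different groups deviated together, so the tests were run without and with the replicate number as a block, and p-values were adjusted over all 17331 genes. Without the block 0 of 46 members passed an edgeR adjusted p under 0.05 in any of the 6 comparisons. Of all genes 0% were called between apoE2 and control, 0.00577% between apoE3 and control, 0.196% between apoE4 and control, 0.144% between apoE4 and apoE3, 0.225% between apoE4 and apoE2 and 0% between apoE3 and apoE2. In that order 4, 8, 3, 3, 9 and 4 of the 46 members had an unadjusted p under 0.05, as did 2.74%, 6.43%, 3.27%, 4.74%, 5.27% and 2.31% of all genes. DESeq2's adjusted p called 1 member, *Dkk2*, between apoE4 and apoE2 and 0 in the other 5 comparisons.

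With the block, the members called numbered 3 of 46 for apoE2 against control (1.72% of all genes), 14 for apoE3 against control (11.4%) and 4 for apoE4 against control (3.25%). Between isoforms there were 2 for apoE4 against apoE3 (1.73%), 7 for apoE4 against apoE2 (4.35%) and 2 for apoE3 against apoE2 (1.29%). In apoE3 cultures 10 of the 14 were higher than in the control and 4 were lower, and of all 1982 genes called 1363 were higher and 619 lower, a similar split. The median log2 fold change of the 46 members with the block was 0.07 for apoE2, 0.21 for apoE3 and 0.13 for apoE4 against control, beside 0.01, 0.01 and 0.00 for all genes. Below, a gene is said to have risen or fallen, or to have passed in a comparison, where it passed this blocked edgeR test. The 3 comparisons with the control use the same 4 control libraries, so they are not independent of each other. The members were chosen with earlier results of these data known, so the counts and medians beside those of all genes are a description.

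A second criterion, called the 2-fold criterion here, took the thresholds of the study, a 2-fold difference and an unadjusted p under 0.05, but with the p of edgeR's quasi-likelihood test in place of the study's per-gene test. Without the block it was met by 3 members for apoE2 (*Wnt5b*, *Wnt7a* and *Wif1*, 0.715% of all genes), 4 for apoE3 (*Wnt5b*, *Sfrp2*, *Nkd1* and *Tcf7*, 2.07%) and 1 for apoE4 (*Wnt10b*, 1.17%). *Wnt10b* passed the count filter only through the apoE4 group, where it is high, so its difference is a description. With the study's per-gene test in its place the members were *Wnt5b* for apoE2, *Sfrp2*, *Nkd1* and *Tcf7* for apoE3 and *Dkk2*, not *Wnt10b*, for apoE4. With edgeR and the block 5 members met it for apoE2 (1.57%), 8 for apoE3 (4.85%) and 3 for apoE4 (2.5%). The 4 libraries of a group and the 4 control libraries did not overlap for 0 members with apoE2 (2.19% of all genes), 0 with apoE3 (2.58%) and 3 with apoE4 (1.93%), which were *Dkk2*, *Frzb* and *Dvl2*, all lower.

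**Figure D2:**
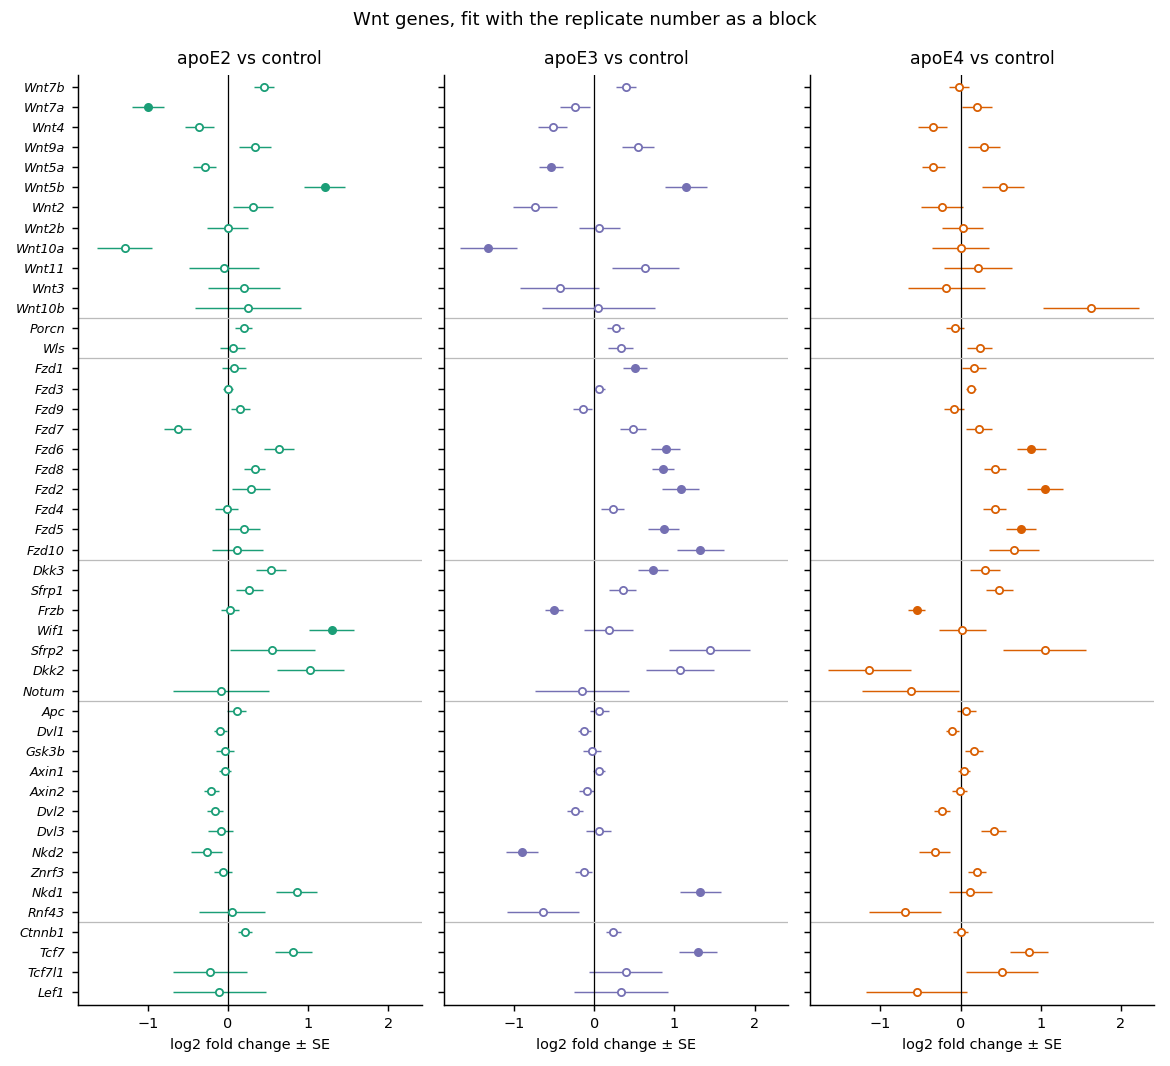
Log2 fold change against the control for the 46 members tested, from the fit with the replicate number as a block, with bars of 1 standard error (4 libraries per group). Filled points passed an edgeR adjusted p under 0.05, which 3 members did with apoE2, 14 with apoE3 and 4 with apoE4. Grey lines separate the roles in the order ligands, secretion, frizzled receptors, antagonists, regulators, and beta-catenin with its partners.

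Among the ligands, *Wnt5b* rose with apoE2 and with apoE3, and *Wnt7a* fell with apoE2. *Wnt5a* and *Wnt10a* fell with apoE3, and none of the 12 ligands tested passed with apoE4. *Wnt5b* was at 1.41, 1.404, 2.02 and 2.41 CPM in control cultures 1 to 4, 5.29, 2.096, 3.94 and 6.701 CPM with apoE2, 6.03, 1.88, 2.78 and 7.45 CPM with apoE3 and 3.73, 1.88, 1.66 and 3.73 CPM with apoE4. Every apoE2 and apoE3 culture stood above the control of its number, yet culture 2 of these groups lay within the control range. The log2 fold change with the block was 1.21 ± 0.25 (log2 ± SE) for apoE2 (edgeR adjusted p = 0.0279) and 1.15 ± 0.26 for apoE3 (0.01099), and 0.53 ± 0.26 for apoE4 (0.339). Without the block the edgeR adjusted p was 1 for apoE2 and 0.735 for apoE3.

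*Wnt7a*, a ligand known for its action on synapse assembly, moved the other way with apoE2. *Wnt7a* was at 13.1, 8.14, 4.67 and 15.6 CPM in control cultures 1 to 4, 6.63, 3.28, 3.75 and 6.37 CPM with apoE2, 10.4, 6.87, 4.53 and 12.8 CPM with apoE3 and 14.7, 5.46, 8.02 and 21.2 CPM with apoE4. All 4 apoE2 cultures were below the control of their number and below the apoE4 culture of their number. With the block *Wnt7a* fell by 1.00 ± 0.20 on the log2 scale with apoE2 (edgeR adjusted p = 0.0185) and was higher with apoE4 than with apoE2 by 1.21 ± 0.20 (0.00249). For apoE3 and apoE4 against control its values were -0.24 ± 0.19 and 0.21 ± 0.19. Its paralog *Wnt7b* is the most abundant ligand per length. *Wnt7b* was at 79.2, 121, 104 and 96.1 CPM in control cultures 1 to 4, 137, 163, 135 and 114 CPM with apoE2, 139, 134, 132 and 118 CPM with apoE3 and 105, 139, 91.2 and 66.0 CPM with apoE4. The apoE4 to apoE2 comparison gave *Wnt7b* a value of -0.47 ± 0.13 on the log2 scale, lower with apoE4 (edgeR adjusted p = 0.0454), and all 4 apoE2 and all 4 apoE3 cultures were above the control of their number (edgeR adjusted p = 0.0904 and 0.0545).

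*Wnt5a*, the leading ligand of the routes without beta-catenin, varied more between culture numbers than between groups. *Wnt5a* stood at 27.3, 12.6, 12.2 and 21.8 CPM in control cultures 1 to 4, 23.01, 8.65, 10.4 and 20.4 CPM with apoE2, 15.6, 7.56, 7.27 and 23.3 CPM with apoE3 and 20.01, 9.47, 7.41 and 24.9 CPM with apoE4. Cultures 1 and 4 were the higher ones in every group. With apoE3 *Wnt5a* fell by 0.54 ± 0.15 on the log2 scale (edgeR adjusted p = 0.0282), with 3 of 4 cultures below the control of their number. *Wnt10a*, a ligand of the canonical branch, was low in most libraries. *Wnt10a* was at 1.04, 0.963, 3.34 and 0.577 CPM in control cultures 1 to 4, 0.988, 0.457, 0.803 and 0.153 CPM with apoE2, 0.534, 0.572, 0.799 and 0.264 CPM with apoE3 and 1.56, 0.881, 3.43 and 0.358 CPM with apoE4. The high values were culture 3 of the control and of the apoE4 group. The blocked log2 value of *Wnt10a* with apoE3 was -1.32 ± 0.36, a fall (edgeR adjusted p = 0.0282), and it was higher with apoE4 than with apoE2 by 1.29 ± 0.35 (0.0475). Its value for apoE2 against control was -1.29 ± 0.34 (0.0767).

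*Wnt10b* had 1 to 19 counts per library, with 10 or more in 3 apoE4 libraries and in 2 of the other 12, too few to pass the filter without the apoE4 group. *Wnt10b* was at 0.499, 0.241, 0.0348 and 0.0525 CPM in control cultures 1 to 4, 0.0706, 0.343, 0.115 and 0.2803 CPM with apoE2, 0.153, 0.164, 0.304 and 0.06595 CPM with apoE3 and 1.02, 0.5402, 0.277 and 0.715 CPM with apoE4. Its apoE4 mean of 0.637 ± 0.311 CPM (SD, n = 4) compares with 0.207 ± 0.216 in the control, a log2 fold change of 1.59 ± 0.68 without the block (edgeR adjusted p = 1, and 0.181 with the block). Of the other ligands, *Wnt2*, *Wnt2b*, *Wnt3*, *Wnt4*, *Wnt9a* and *Wnt11* passed in no comparison, and *Wnt11* reached 10 counts in 7 of the 16 libraries and *Wnt3* in 8.

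Several of these ligand values depended on single libraries or numbers. With number 1, 2, 3 or 4 left out of every group, the edgeR adjusted p of *Wnt5b* was 0.197, 0.0561, 0.109 and 0.0613 for apoE2, so that its call rested on all 4, and for apoE3 it was 0.126 without number 1 and 0.0752 without number 4. The apoE2 call of *Wnt7a* was lost without number 1 (0.181) or 2 (0.0544), whereas its difference between apoE4 and apoE2 passed in all 4 fits. *Wnt5a* lost its call without number 1 (0.223), 2 (0.0985) or 3 (0.135) and *Wnt10a* its apoE3 call without number 1 (0.0769) or 3 (0.245). Between apoE4 and apoE2, *Wnt10a* passed in none of the 4 fits (0.0580, 0.1005, 0.387 and 0.0945) and *Wnt7b* passed only without number 2 (0.0749, 0.254 and 0.104 without the others). The unblocked log2 fold change of *Wnt10b* with apoE4 was 2.46 without control culture 1, and its unadjusted p in the edgeR fit of all genes was above 0.05 without control culture 3 (0.0877) or 4 (0.0831) and without apoE4 culture 1 (0.0926) or 4 (0.0574). In the same fit the unadjusted p of *Wnt7a* for apoE2 was above 0.05 without control culture 1 (0.0936) or 4 (0.115) or apoE2 culture 2 (0.0909) or 3 (0.0842), and *Wnt5b* did not reach the 2-fold minimum for apoE3 without apoE3 culture 4 (log2 fold change 0.96).

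**Figure D3:**
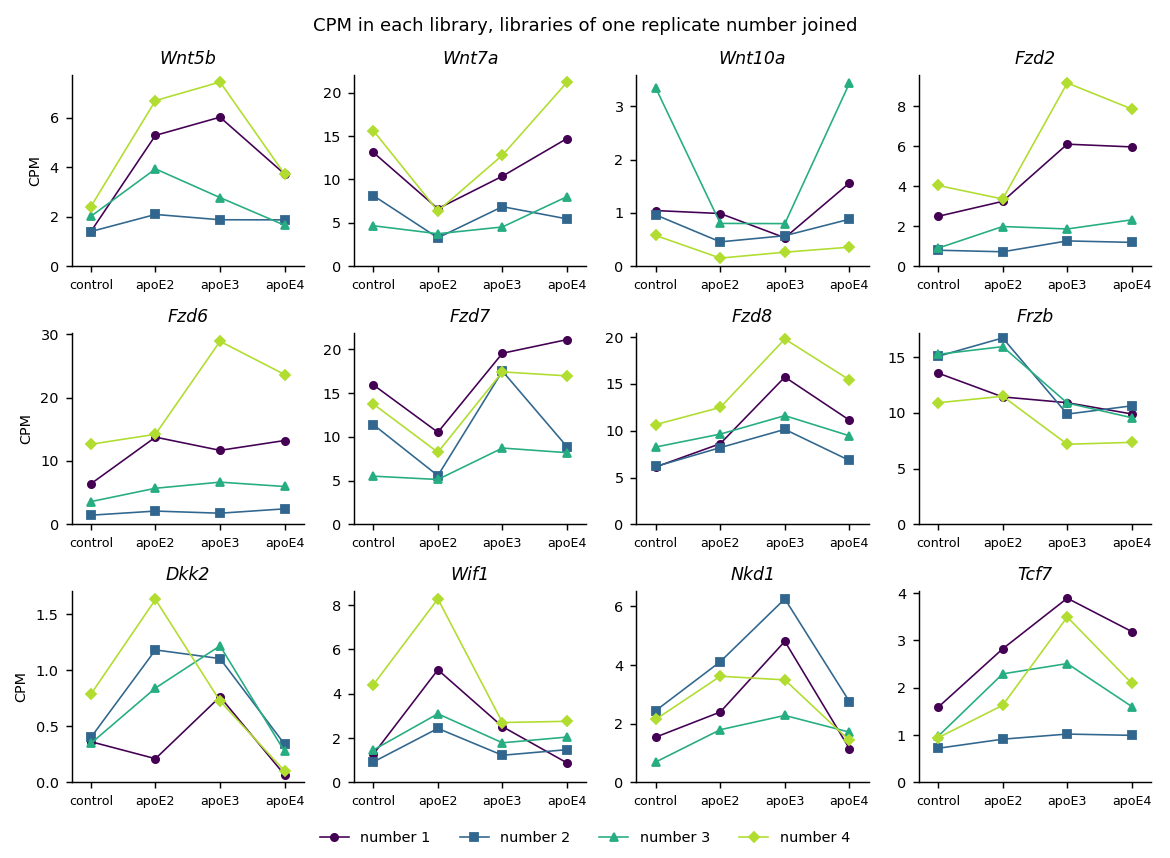
CPM of 12 members in each of the 16 libraries, with the libraries of one replicate number joined by a line across the groups (axes start at 0). *Fzd8* and *Nkd1* are above the control with apoE3 in all 4 numbers, *Frzb* is below it with apoE3 and apoE4 in all 4, and *Wnt7a* and *Fzd7* have their lowest value with apoE2 in each number.

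Neither gene of ligand secretion passed a test. *Porcn* was at 67.3, 71.6, 82.9 and 59.3 CPM in control cultures 1 to 4, 63.7, 99.6, 90.97 and 70.02 CPM with apoE2, 79.3, 96.1, 107 and 61.1 CPM with apoE3 and 63.6, 90.1, 77.1 and 43.7 CPM with apoE4. The groups overlapped, with 70.3 ± 9.81 CPM (SD, n = 4) in the control and 85.8 ± 19.99 with apoE3. *Wls* ranged from 28.7 to 123 CPM, with its highest values in culture 4 of the apoE3 and apoE4 groups, and its log2 fold change with the block was 0.33 ± 0.16 for apoE3 and 0.24 ± 0.16 for apoE4.

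Frizzled receptors were the role with the most members called against the control in the apoE3 group. With apoE3, 6 of 10 rose (*Fzd1*, *Fzd2*, *Fzd5*, *Fzd6*, *Fzd8* and *Fzd10*), 0 fell and 9 of 10 had a positive fold change, at a median log2 fold change of 0.68. With apoE4, *Fzd2*, *Fzd5* and *Fzd6* rose, 9 of 10 were positive and the median was 0.43, and with apoE2 none passed and the median was 0.13. Of all genes 52.1% had a positive blocked fold change with apoE3 and 49.9% with apoE4, and of the 564 genes called with apoE4 544 were higher and 20 lower. No frizzled receptor passed between apoE4 and apoE3.

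*Fzd8* had the smallest p of the class with apoE3. *Fzd8* was at 6.13, 6.18, 8.25 and 10.7 CPM in control cultures 1 to 4, 8.61, 8.19, 9.64 and 12.5 CPM with apoE2, 15.7, 10.1, 11.6 and 19.8 CPM with apoE3 and 11.1, 6.82, 9.46 and 15.4 CPM with apoE4. All 4 apoE3 cultures exceeded the control of their number, although culture 2 of apoE3 was below culture 4 of the control. The log2 fold change of *Fzd8* with apoE3 was 0.85 ± 0.14 with the block (edgeR adjusted p = 0.00158) and 0.87 ± 0.28 without it (0.601). *Fzd8* with apoE3 also passed in each of the 4 blocked fits that leave out a number.

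*Fzd2* was at 2.497, 0.802, 0.906 and 4.04 CPM in control cultures 1 to 4, 3.25, 0.724, 1.99 and 3.36 CPM with apoE2, 6.11, 1.27, 1.86 and 9.17 CPM with apoE3 and 5.97, 1.19, 2.32 and 7.87 CPM with apoE4. Every apoE3 and apoE4 culture was above the control of its number, and *Fzd2* rose by 1.08 ± 0.23 on the log2 scale with apoE3 (edgeR adjusted p = 0.00786) and by 1.05 ± 0.23 with apoE4 (0.0184). *Fzd6* was at 6.40, 1.44, 3.59 and 12.6 CPM in control cultures 1 to 4, 13.8, 2.096, 5.697 and 14.2 CPM with apoE2, 11.7, 1.76, 6.66 and 28.9 CPM with apoE3 and 13.2, 2.45, 5.97 and 23.7 CPM with apoE4. *Fzd6* differed widely between numbers, from 1.44 to 12.6 CPM within the control alone. Its blocked values were 0.89 ± 0.18 with apoE3 (edgeR adjusted p = 0.00664), 0.88 ± 0.18 with apoE4 (0.0133) and 0.64 ± 0.18 with apoE2 (0.1003). *Fzd5* was at 2.81, 1.04, 1.11 and 2.41 CPM in control cultures 1 to 4, 3.81, 1.295, 1.07 and 2.57 CPM with apoE2, 5.04, 1.39, 1.98 and 5.67 CPM with apoE3 and 5.02, 1.76, 1.71 and 4.14 CPM with apoE4. In each number *Fzd5* was above its control with apoE3 and with apoE4, by 0.86 ± 0.19 (edgeR adjusted p = 0.00967) and 0.76 ± 0.19 (0.0416) on the log2 scale. An RNA on the opposite strand (*Gm38058*) overlaps 17.8% of the *Fzd5* exons.

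*Fzd10* was at 0.772, 0.281, 0.557 and 1.26 CPM in control cultures 1 to 4, 0.988, 0.267, 0.612 and 1.27 CPM with apoE2, 3.13, 0.286, 1.03 and 3.89 CPM with apoE3 and 1.36, 0.227, 0.996 and 2.299 CPM with apoE4. *Fzd10* did not exceed 0.286 CPM in culture 2 of any group, where apoE3 and control were nearly equal, and the other 3 apoE3 cultures stood clearly above their controls. It rose with apoE3 by 1.33 ± 0.30 (edgeR adjusted p = 0.01096). *Fzd1* was at 30.96, 32.1, 42.1 and 35.3 CPM in control cultures 1 to 4, 42.3, 27.2, 36.1 and 45.3 CPM with apoE2, 56.8, 29.4, 49.6 and 73.1 CPM with apoE3 and 37.5, 30.7, 49.2 and 42.7 CPM with apoE4. *Fzd1* rose with apoE3 by 0.51 ± 0.15 (edgeR adjusted p = 0.0406), in 3 of 4 cultures against the control of their number. *Fzd7* measured 15.9, 11.4, 5.503 and 13.7 CPM in control cultures 1 to 4, 10.5, 5.56, 5.12 and 8.23 CPM with apoE2, 19.5, 17.5, 8.71 and 17.4 CPM with apoE3 and 21.1, 8.87, 8.19 and 16.96 CPM with apoE4. The apoE2 group stood apart here, with every apoE2 culture below its control, its apoE3 and its apoE4 counterpart. *Fzd7* was higher with apoE3 than with apoE2 by 1.11 ± 0.17 (edgeR adjusted p = 0.00561) and higher with apoE4 than with apoE2 by 0.86 ± 0.17 (0.00789), while apoE2 against control gave -0.63 ± 0.17 (0.0715). *Fzd3*, *Fzd4* and *Fzd9* passed in no comparison, and *Fzd3*, the second most abundant frizzled per length, held 115 ± 12.5 CPM in the control and 119.9 ± 15.7 with apoE3 (SD, n = 4).

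Leaving number 1 out of every group ended the apoE3 calls of *Fzd1* (edgeR adjusted p = 0.264), *Fzd2* (0.106), *Fzd5* (0.0869) and *Fzd10* (0.149), number 3 those of *Fzd1* (0.0762), *Fzd5* (0.0624) and *Fzd6* (0.0566), and number 4 those of *Fzd1* (0.2203, with a log2 fold change of 0.31), *Fzd5* (0.0556) and *Fzd10* (0.0716). For apoE4 the edgeR adjusted p of *Fzd2* was 0.212 without number 1 and 0.0703 without number 3, that of *Fzd6* 0.117 and 0.106, and that of *Fzd5* 0.2698, 0.102, 0.194 and 0.0848 without numbers 1 to 4. *Fzd7* lost its difference between apoE4 and apoE2 without number 1 (0.06702) or 4 (0.0702) and that between apoE3 and apoE2 without number 1 (0.0503).

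Markers of glial and other cells also differed between groups. The summed astrocyte markers were 1408 to 3168 CPM in the control, 1305 to 3156 with apoE2, 1695 to 6615 with apoE3 and 1568 to 5379.6 with apoE4, and 7 of 8 astrocyte markers rose with apoE3 and 3 of 8 with apoE4, against 0 with apoE2. For meningeal fibroblast markers the sums were 16.4 to 134, 14.6 to 149.8, 17.4 to 216 and 19.8 to 227 CPM in the same order, and 2 of 5 rose with apoE3 and 2 of 5 with apoE4. Of 5 oligodendrocyte precursor markers, 3 rose with apoE3 and 1 with apoE4. Of 10 neuron markers, 3 fell and 1 rose with apoE3, and the sums were 4399.8 to 7684 CPM in the control and 3061 to 7277 with apoE3. Markers of dividing cells summed to 7.18 to 17.9 CPM in the control, 19.1 to 28.4 with apoE2, 26.2 to 40.5 with apoE3 and 12.1 to 28.4 with apoE4, and 1 of 5, *Top2a*, rose with apoE2 (log2 fold change 1.84) and apoE3 (2.59). *Top2a* reached 34.9 CPM, and the other 4 dividing-cell markers did not pass in either group, with *Mki67* at 0.00 for apoE2 and 0.56 for apoE3. Cajal-Retzius cell markers summed to 65.9 to 147 CPM in the control and 52.9 to 88.5 with apoE3. Other lists rose by 2 of 6 (oligodendrocyte), 1 of 6 (mural cell), 1 of 4 (ependymal and choroid plexus) and 1 of 3 (endothelial) with apoE3, and 0 of 7 for microglia. The part of these cells in the values of the Wnt genes was not tested.

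**Figure D4:**
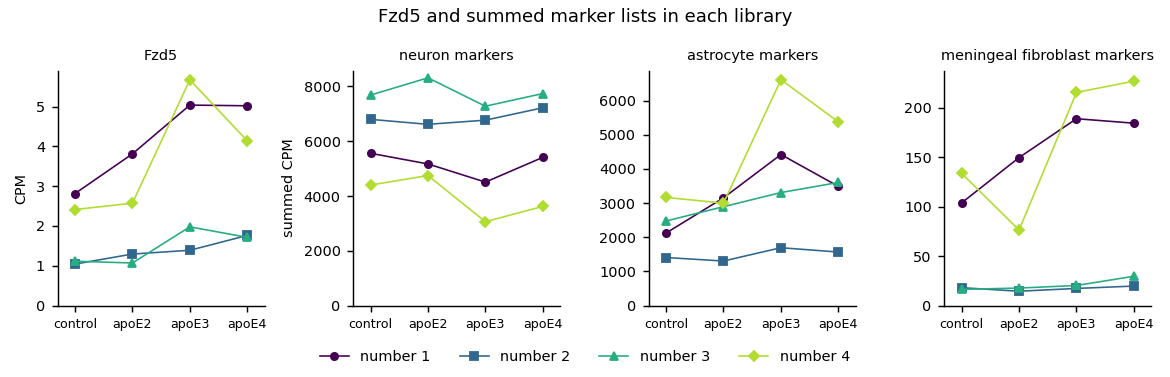
CPM of *Fzd5* and summed CPM of the neuron, astrocyte and meningeal fibroblast markers in each library, with the libraries of one replicate number joined across the groups (axes start at 0). *Fzd5* and the fibroblast sum are high in numbers 1 and 4 and low in 2 and 3, the astrocyte sum is highest in number 4 with apoE3, and the neuron sum is lowest there.

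Secreted antagonists moved in both directions. *Frzb*, which encodes a secreted frizzled-related protein that binds Wnt ligands, fell with apoE3 and apoE4. *Wif1*, another ligand-binding inhibitor, rose with apoE2, and *Dkk3*, a dickkopf family member, rose with apoE3. *Frzb* was at 13.6, 15.1, 15.3 and 10.9 CPM in control cultures 1 to 4, 11.4, 16.7, 15.9 and 11.5 CPM with apoE2, 10.9, 9.89, 10.9 and 7.19 CPM with apoE3 and 9.905, 10.6, 9.57 and 7.36 CPM with apoE4. The apoE4 cultures did not overlap with the control or apoE2 cultures, and the apoE3 cultures did not overlap with the apoE2 cultures. The blocked log2 fold change of *Frzb* was -0.50 ± 0.11 for apoE3 (edgeR adjusted p = 0.00998), -0.55 ± 0.11 for apoE4 (0.0119) and 0.02 ± 0.11 for apoE2 (0.963) against control. *Frzb* was also lower with apoE4 than with apoE2, with a log2 value of -0.57 ± 0.11 (edgeR adjusted p = 0.00768), and lower with apoE3 than with apoE2, with -0.53 ± 0.11 (0.0325). Within the control, apoE3 and apoE4 groups the lowest value was in culture 4.

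*Wif1* was at 1.27, 0.923, 1.46 and 4.41 CPM in control cultures 1 to 4, 5.08, 2.44, 3.097 and 8.28 CPM with apoE2, 2.52, 1.23, 1.79 and 2.704 CPM with apoE3 and 0.882, 1.48, 2.05 and 2.76 CPM with apoE4. Each apoE2 culture had more *Wif1* than the control of its number, but control culture 4 was above apoE2 cultures 2 and 3. *Wif1* rose with apoE2 by 1.29 ± 0.28 (edgeR adjusted p = 0.0318) and was lower with apoE4 than with apoE2, with a log2 value of -1.27 ± 0.29 (0.0190). *Dkk3* was at 41.1, 43.5, 98.8 and 83.9 CPM in control cultures 1 to 4, 105, 50.03, 119 and 113 CPM with apoE2, 109, 47.6, 115 and 198 CPM with apoE3 and 77.5, 49.05, 90.3 and 110.4 CPM with apoE4. *Dkk3* was above its control in all 4 apoE2 and all 4 apoE3 cultures, and rose with apoE3 by 0.74 ± 0.19 (edgeR adjusted p = 0.0205), with 0.53 ± 0.19 for apoE2 (0.192).

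*Dkk2*, which encodes a ligand of the LRP5 and LRP6 co-receptors, had the largest fold change among the members called. *Dkk2* was at 0.363, 0.401, 0.348 and 0.787 CPM in control cultures 1 to 4, 0.212, 1.18, 0.841 and 1.63 CPM with apoE2, 0.763, 1.104, 1.22 and 0.725 CPM with apoE3 and 0.0678, 0.341, 0.277 and 0.102 CPM with apoE4. The apoE4 cultures held 1, 12, 5 and 2 counts, and all were below every control and every apoE3 culture. *Dkk2* was lower with apoE4 than with apoE3, with a log2 value of -2.21 ± 0.48 (edgeR adjusted p = 0.03197), and lower than with apoE2, with -2.17 ± 0.47 (0.0157), while apoE4 against control gave -1.14 ± 0.52 (0.291), apoE2 1.03 ± 0.41 (0.281) and apoE3 1.07 ± 0.43 (0.119). *Sfrp2* was at 0.136, 0.562, 0.139 and 0.2099 CPM in control cultures 1 to 4, 0.706, 0.495, 0.191 and 0.331 CPM with apoE2, 1.07, 0.572, 0.304 and 1.25 CPM with apoE3 and 0.611, 0.341, 0.332 and 1.12 CPM with apoE4. *Sfrp2*, a relative of *Frzb*, met the 2-fold criterion for apoE3, where the unblocked value was 1.55 ± 0.61 on the log2 scale, with an edgeR adjusted p of 0.758, and 0.0781 with the block. *Sfrp1*, high in number 4, and *Notum*, with 134 counts in all, passed in no comparison.

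The calls of *Frzb* were lost for apoE3 without number 3 (edgeR adjusted p = 0.0762), for apoE4 without number 2 (0.0542) or 3 (0.173), between apoE4 and apoE2 without number 2 (0.0599) or 3 (0.123) and between apoE3 and apoE2 without number 2 (0.168), 3 (0.196) or 4 (0.143). *Wif1* with apoE2 kept its call only without number 4 (0.156, 0.133 and 0.171 without the others) and between apoE4 and apoE2 only without number 2 (0.0821, 0.0661 and 0.0762). *Dkk3* lost its call without number 1 (0.136) or 4 (0.107). *Dkk2* kept its difference between apoE4 and apoE3 only without number 4 (0.145, 0.0789 and 0.249) and its difference between apoE4 and apoE2 only without number 1 (0.0612, 0.0842 and 0.0844), and DESeq2 with the block gave the latter no adjusted p. In the unblocked edgeR fit of all genes *Wif1* no longer met the 2-fold criterion for apoE2, with the unadjusted p in parentheses, without control culture 1 (0.0839), 2 (0.0883) or 3 (0.0783) or apoE2 culture 1 (0.0552) or 4 (0.138, log2 fold change 0.81), and its log2 fold change was 1.93 without control culture 4. *Sfrp2* likewise did not meet it for apoE3 without control culture 1 (0.0632), 3 (0.0666) or 4 (0.0519) or apoE3 culture 1 (0.05704) or 4 (0.0785), and its log2 fold change was 2.25 without control culture 2.

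Of the 11 regulators at the membrane and in the cytoplasm, the pair of naked cuticle genes moved in opposite directions with apoE3 and the other 9 passed in no comparison. Their proteins bind Dishevelled. *Nkd1* was at 1.54, 2.45, 0.697 and 2.15 CPM in control cultures 1 to 4, 2.40, 4.11, 1.797 and 3.62 CPM with apoE2, 4.81, 6.26, 2.28 and 3.495 CPM with apoE3 and 1.15, 2.76, 1.71 and 1.43 CPM with apoE4. All 4 apoE3 cultures had more *Nkd1* than the control of their number, while the apoE4 values lay on both sides. *Nkd1* rose with apoE3 by 1.33 ± 0.25 (edgeR adjusted p = 0.00462) and was lower with apoE4 than with apoE3, with a log2 value of -1.20 ± 0.26 (0.0275), with 0.85 ± 0.25 for apoE2 against control (0.114). *Nkd2* was at 13.1, 23.7, 5.399 and 12.3 CPM in control cultures 1 to 4, 9.88, 13.2, 3.90 and 16.97 CPM with apoE2, 7.48, 11.5, 2.89 and 6.79 CPM with apoE3 and 10.99, 15.5, 5.81 and 8.99 CPM with apoE4. *Nkd2* fell with apoE3 by 0.91 ± 0.20 on the log2 scale (edgeR adjusted p = 0.00975), in 4 of 4 numbers. The rise of *Nkd1* passed in all 4 fits without a number, its difference between apoE4 and apoE3 passed only without number 4 (edgeR adjusted p = 0.238, 0.113 and 0.0539 without the others), and *Nkd2* lost its call without number 1 (0.08098).

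*Axin2*, the most widely used readout of the canonical branch, did not pass in any comparison. *Axin2* was at 24.6, 20.9, 25.04 and 24.9 CPM in control cultures 1 to 4, 19.7, 17.4, 24.5 and 20.9 CPM with apoE2, 24.9, 21.1, 20.5 and 22.95 CPM with apoE3 and 22.7, 19.96, 26.1 and 26.1 CPM with apoE4. Every apoE2 culture was below the control of its number. The blocked log2 fold changes of *Axin2* were -0.21 ± 0.09 for apoE2 (edgeR adjusted p = 0.338), -0.09 ± 0.09 for apoE3 (0.569) and -0.01 ± 0.09 for apoE4 (0.965). *Apc* was at 889, 951, 768 and 978 CPM in control cultures 1 to 4, 838, 950.3, 1003 and 1069 CPM with apoE2, 909.9, 1115, 965 and 766 CPM with apoE3 and 973, 1057, 933 and 804 CPM with apoE4. *Apc* differed by 0.11 ± 0.12, 0.06 ± 0.12 and 0.07 ± 0.12 for apoE2, apoE3 and apoE4, less than the spread within groups. The ubiquitin ligases *Znrf3* and *Rnf43*, the kinase *Gsk3b* and *Axin1*, *Dvl1* and *Dvl3* did not pass either. *Dvl2* was lower in every apoE4 culture than in every control culture, at 15.1 ± 0.399 against 17.7 ± 1.65 CPM (SD, n = 4), a log2 fold change of -0.23 ± 0.10 with an edgeR adjusted p of 0.255, and an opposite-strand gene (*Acadvl*) and a microRNA gene overlap 19.7% of its exons.

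At the end of the pathway, only *Tcf7*, the gene of a TCF factor also called TCF1, passed a test. *Tcf7* was at 1.59, 0.722, 0.975 and 0.944 CPM in control cultures 1 to 4, 2.82, 0.914, 2.29 and 1.63 CPM with apoE2, 3.89, 1.02, 2.51 and 3.495 CPM with apoE3 and 3.19, 0.995, 1.604 and 2.09 CPM with apoE4. Every apoE culture had more *Tcf7* than the control of its number, and number 2 was the lowest in all groups. *Tcf7* rose with apoE3 by 1.30 ± 0.23 (edgeR adjusted p = 0.00322), and gave 0.82 ± 0.24 with apoE2 (0.1003) and 0.85 ± 0.24 with apoE4 (0.0667). Without number 1 its apoE3 value had an edgeR adjusted p of 0.0511. *Ctnnb1* was at 651, 806, 723 and 728 CPM in control cultures 1 to 4, 898, 879.7, 754 and 839.8 CPM with apoE2, 875, 783, 791 and 981 CPM with apoE3 and 717, 803, 656 and 746 CPM with apoE4. Beta-catenin RNA was above its control in 4 of 4 apoE2 and 3 of 4 apoE3 cultures, at 0.21 ± 0.09 (edgeR adjusted p = 0.331) and 0.24 ± 0.09 (0.111), and at 0.00 ± 0.09 with apoE4. *Lef1*, a second TCF/LEF factor, had 0 to 29 counts per library. *Lef1* lay at 0.363, 0.361, 0.418 and 0.157 CPM in control cultures 1 to 4, 0, 0.114, 0.535 and 0.739 CPM with apoE2, 0.153, 0.286, 0.495 and 1.06 CPM with apoE3 and 0.0678, 0.256, 0.221 and 0.409 CPM with apoE4. Its groups overlapped widely, with blocked values of -0.11 ± 0.58, 0.34 ± 0.59 and -0.55 ± 0.63 for apoE2, apoE3 and apoE4, and *Tcf7l1*, at 127 counts in all, passed in no comparison. *Lef1* passed the count filter only through the apoE3 group and *Notum* only through the control, the groups with their highest means.

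Differences between isoforms were tested directly. Between apoE4 and apoE3 only *Dkk2* and *Nkd1* passed, both lower with apoE4. Between apoE4 and apoE2, *Wnt7a*, *Wnt10a* and *Fzd7* were higher and *Wnt7b*, *Dkk2*, *Frzb* and *Wif1* lower with apoE4. Between apoE3 and apoE2, *Fzd7* was higher and *Frzb* lower with apoE3. The values of *Wnt5b* did not pass between any isoforms. The 20 tested members not described by library, among them *Wnt4*, *Fzd4*, *Sfrp1*, *Gsk3b* and *Znrf3*, had blocked log2 fold changes against the control from -0.74 ± 0.27 (*Wnt2*, apoE3) to 0.64 ± 0.41 (*Wnt11*, apoE3), and their smallest edgeR adjusted p was 0.0794, for *Wnt4* with apoE3.

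Of 72 other genes of the pathway listed by role, 60 were tested, and none passed without the block. Of the co-receptors and the R-spondin axis, 6 of 13 rose with apoE3 and 0 fell. They were *Lrp5*, a co-receptor of the frizzled receptors (0.63 ± 0.15), *Ror1* (1.05 ± 0.25), *Ror2* (1.30 ± 0.34), *Ryk* (0.35 ± 0.11) and *Ptk7* (0.54 ± 0.17), which encode single-pass Wnt receptors, and *Lgr4*, a receptor of R-spondins (0.28 ± 0.08, all log2 with the block). With apoE4, *Lrp6* (0.38 ± 0.08, edgeR adjusted p = 0.0138) and *Ryk* (0.52 ± 0.11, 0.0144) rose, and with apoE2 none did.

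Among 8 commonly cited targets of beta-catenin tested, 4 rose with apoE3, namely *Cd44* (1.53 ± 0.17, edgeR adjusted p = 0.000154), *Ccnd1* (1.01 ± 0.19, 0.003996), *Wisp1* (1.37 ± 0.30, 0.01004) and *Id2* (0.48 ± 0.12, 0.0203). With apoE4 *Wisp1* (1.68 ± 0.30) and *Cd44* (1.09 ± 0.17) rose, and with apoE2 both rose (1.43 ± 0.30 and 0.89 ± 0.17) while *Id2* fell (-0.51 ± 0.12). These genes have many other regulators, and *Cd44* and *Ccnd1* are also expressed by astrocytes. Of 8 astrocyte markers, 7 rose with apoE3, 3 with apoE4 and 0 with apoE2. The part of astrocytes or of beta-catenin in these values was not tested. Between apoE3 and apoE2, *Ccnd1* (0.92 ± 0.19), *Id2* (0.99 ± 0.12) and *Jun* (0.47 ± 0.09) were higher with apoE3, and *Id2* was higher with apoE4 than with apoE2 (0.70 ± 0.12).

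Among 6 other ligands and antagonists tested, *Sostdc1*, an inhibitor of Wnt and BMP signaling, rose with apoE2 (1.84 ± 0.34, edgeR adjusted p = 0.0137) and was lower with apoE3 (-1.72 ± 0.34) and apoE4 (-1.31 ± 0.32) than with apoE2. *Wnt9b* fell with apoE3 (-2.05 ± 0.60). *Dkkl1* was called higher with apoE3 than in the control (1.55 ± 0.34) and with apoE2 (1.64 ± 0.34), and lower with apoE4 than with apoE3 (-1.78 ± 0.36), but it passed the count filter only through the apoE3 group, where it is high, with 3 of the other 12 libraries at 10 or more counts. *Wnt8b* rose with apoE4 (0.90 ± 0.23) and was higher with apoE4 than with apoE2 (0.89 ± 0.23). Of 13 planar cell polarity genes, *Daam2* rose with apoE3 (0.79 ± 0.17) and apoE4 (0.68 ± 0.17) and was higher with apoE3 (0.79 ± 0.17) and apoE4 (0.68 ± 0.17) than with apoE2, *Prickle2* fell with apoE3 (-0.48 ± 0.14), and *Celsr1* (0.55 ± 0.14) and *Vangl2* (0.45 ± 0.12) were higher with apoE4 than with apoE2. Of 20 other cytoplasmic and nuclear components 1 passed against the control, the beta-catenin cofactor *Pygo1*, which fell with apoE3 (-0.46 ± 0.09, edgeR adjusted p = 0.00523) and was lower with apoE3 than with apoE2 (-0.51 ± 0.09). The shares of all genes called in these comparisons are those given above for the blocked test.

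Culture number accounted for more of the spread of the Wnt genes than treatment did. Over the 46 members the median share of the variance of log2 CPM was 53.3% between numbers and 19.6% between groups, beside 55.5% and 14.5% for all genes tested. *Fzd6* (90.4%), *Sfrp1* (89.8%), *Wls* (87.4%) and *Wnt5a* (84.8%) had the largest shares between numbers. Over 50% between groups was found for 3 of 46 members (6.52%), *Dkk2* (60.5%), *Frzb* (58.1%) and *Nkd1* (50.4%), near the 4.15% of all genes tested. Mean *Fzd6* was 11.3, 1.94, 5.48 and 19.8 CPM in numbers 1 to 4, mean *Wls* 47.2, 30.1, 31.2 and 92.1 CPM and mean *Wnt5a* 21.5, 9.58, 9.32 and 22.6 CPM. In the same order the summed astrocyte markers averaged 3298, 1494, 3072 and 4540.3 CPM, the mural cell markers 61.04, 15.6, 21.9 and 212 CPM, the fibroblast markers 157, 17.5, 21.1 and 163 CPM and the neuron markers 5162, 6851, 7754 and 3958 CPM. *Wnt4* (17.2 CPM in number 2 against 7.17 to 10.1 in the others) and *Nkd2* (15.98 in number 2 against 4.50 to 11.3) had their highest means in number 2, where the astrocyte and fibroblast sums were lowest. What a number stands for is not stated beyond separate cultures, and the part of these cell markers in the differences between numbers was not tested.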

How the data were processed

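RNA of 16 mouse hippocampal neuron cultures, 4 per group, was sequenced. The groups and replicate numbers are those of the labels. The authors used STAR for alignment to mm10 and deposited raw HTSeq counts per gene. The annotation and the strand setting of the counting are not given in the sources used here. Library sizes here hold only reads assigned to 1 gene.

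The counts were fitted in edgeR 4.0.16 (R 4.3.3) with TMM scaling, a filter of at least 10 counts in at least 4 libraries, 1 coefficient per group and the quasi-likelihood test over all 17331 genes, with Benjamini-Hochberg adjustment within each of 6 comparisons. SE is the log2 fold change divided by the root of F. The authors' methods name no block. Deviations from the group means correlated at 0.346 to 0.823 between libraries of one number and at -0.730 to 0.556 between different numbers. Number 1 gave 0.346 to 0.538, within the range of different numbers. The numbers were treated as pairing the samples, although the labels do not say so. The main fit has no block, and genes are called risen or fallen from the fit with the block. The common dispersion was 0.132 without and 0.0178 with the block. P-values without the block are set against the spread between cultures of a group. With the block they are set against the spread left once differences between numbers are removed. No 2 libraries of a group were alike within sampling noise (chi-square per gene 42.3 to 464).

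Alternatives were DESeq2 1.42.0, DESeq2 size factors, other filters, fits restricted to the pair of groups compared, the per-gene test of the study's methods, no minimum fold, and leaving out each library or each number. Gene lengths and positions come from GENCODE M21 (GRCm38). The scripts were tested on simulated data. Full values are given for members called with or without the block, members at the 2-fold criterion (2-fold, unadjusted p under 0.05) against the control, the most abundant member of each role, and *Axin2*, *Lef1* and *Ctnnb1*. The members, the lists and this rule were chosen with earlier results of these data known. The labels and the methods give different units for the AraC concentration.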

Additional observations from a re-analysis of the deposited data

Results flagged for a closer look

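In 8 of 188 combinations of a member and a group, the highest or lowest of the 4 libraries stood far from the other 3. Chance alone marks about 1 in 20, so 8 is not more than chance would give. *Wnt10a* was at 3.34 CPM in control culture 3 against 1.04 in the next. *Wnt11* was at 1.78 CPM in control culture 4 (next 0.441) and at 2.503 CPM in apoE4 culture 4 (next 0.443). *Dkk2* was at 0.787 CPM (next 0.401) and *Wif1* at 4.41 CPM (next 1.46) in control culture 4. *Axin2* was low in control culture 2, at 20.9 CPM against 24.6 in the next. *Dvl3* was at 26.3 CPM in apoE4 culture 1 (next 16.6), and *Wls* at 111 CPM in apoE4 culture 4 (next 43.6). Of the 8, 5 are in culture 4 of the control or the apoE4 group.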

How the results depend on the processing

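No fold change of a member called in the tests reversed its direction under the alternatives run, although the median of the 7 antagonists for apoE4 against control was -0.16 without and 0.02 with the block. Without the replicate block the members called at an adjusted p under 0.05 fell from 3, 14, 4, 2, 7 and 2 (apoE2, apoE3 and apoE4 against control, apoE4 against apoE3, apoE4 against apoE2, apoE3 against apoE2) to 0 in each comparison. DESeq2 with the block called 9, 17, 5, 4, 9 and 9, beside 711, 2647, 960, 700, 1243 and 725 of all genes, and unblocked DESeq2 called 1 between apoE4 and apoE2 and 0 elsewhere, beside 29, 57, 91, 69, 164 and 9 of all genes. With the block DESeq2 also called *Wnt7b* and *Wnt10a* between apoE4 and apoE3. Of the genes that passed in no comparison with edgeR, it called *Wnt4* with apoE3 against control. It also called *Fzd4* and *Dvl3* between apoE4 and apoE2 and *Wnt2* between apoE3 and apoE2. Of 32 edgeR calls with the block, 3 held in all 4 fits that left out a number and 3 in none. In those fits the blocked counts ranged from 0 to 6, 4 to 15, 0 to 4, 0 to 3, 2 to 4 and 1 to 1 in the same order, beside 21 to 727, 419 to 1880, 136 to 518, 40 to 363, 238 to 543 and 15 to 119 of all genes. The unblocked counts stayed at 0 with each library left out, other filters, DESeq2 size factors and a fit of only the 2 groups compared.

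For the 2-fold criterion with edgeR (3, 4 and 1 members for apoE2, apoE3 and apoE4), leaving out each library gave 2 to 4, 2 to 8 and 0 to 3, beside 0.593 to 1.27%, 1.13 to 5.38% and 0.848 to 2.05% of all genes. The highest was without apoE3 culture 2 (8 for apoE3) and without apoE4 culture 2 (3 for apoE4), and the lowest without apoE3 culture 4 (2 for apoE3) and without control culture 3 or 4 or apoE4 culture 1 or 4 (0 for apoE4). The block gave 5, 8 and 3, and with a number left out 3 to 5, 6 to 7 and 0 to 4 (1.36 to 2.65%, 3.41 to 6.32% and 1.96 to 3.13% of all genes). The methods' per-gene test gave 1, 3 and 1 (0.485, 1.07 and 0.739% of all genes). It did not keep *Wnt7a* or *Wif1* (apoE2), *Wnt5b* (apoE3) or *Wnt10b* (apoE4), and it added *Dkk2* (apoE4). With no minimum fold there were 8 for apoE3 and 3 for apoE4 (6.43 and 3.27%), and with the stricter filter (1 CPM in 8 libraries) 3, 3 and 0 for the 3 isoforms (0.457, 1.29 and 0.786%). Unblocked DESeq2 gave 4, 6 and 1 (0.802, 2.71 and 1.29%), and fits of only the 2 groups 2, 6 and 0 (0.819, 1.72 and 1.13%). For apoE3 both added *Wnt10a*, with *Fzd10* in DESeq2 and *Dkk2* in the fit of 2 groups. DESeq2 size factors, edgeR's default filter and no filter left the counts at 3, 4 and 1. The cause of these changes was not tested. Low counts limit *Wnt3*, *Wnt6*, *Wnt10b*, *Wnt11*, *Dkk2*, *Sfrp2*, *Notum*, *Lef1* and *Tcf7l1*, which had 66 to 267 counts over all libraries.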
